A study of Mus musculus with 14 samples.

Results

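Brown adipocytes made in culture were set against the tissue they model. The day 7 library of an immortalized brown preadipocyte line was compared with 1 library of adult brown adipose tissue (BAT) and 1 library of embryonic BAT. A gene was taken as a member when it stood at least 2 apart on the log2(RPKM + 1) scale from both tissues in the same direction, with its higher RPKM at least 5. RPKM counts reads per kilobase of transcript relative to the size of the library, and the 3 libraries were first brought to a common scale by the median of their gene ratios. Of 22836 genes in the files, 663 were members, 259 of them higher and 404 lower in culture. Among the 9492 genes that reached 5 RPKM in at least 1 of the 3 libraries these are 2.73% and 4.26%, which the rule itself fixes. Each group was 1 library, so no difference here was tested, and the intervals given cover counting error only.

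The series holds 14 mouse RNA-seq libraries: the adult and embryonic tissue, and 6 stages of differentiation (0h, 1h, 2h, 4h, and days 2 and 7) in the brown line and in 3T3-L1, a white preadipocyte line. The brown line came from interscapular BAT of newborn pups that carry floxed Pparg alleles (Pparg f/f). It was immortalized with SV40T, the simian virus 40 T antigen, which is known to bind the retinoblastoma and p53 proteins. No Cre is named, so Pparg is taken as intact. Cells were plated 4 days ahead and induced at confluence with 0.02 µM insulin, 1 nM of the thyroid hormone T3, 0.5 mM of the phosphodiesterase inhibitor IBMX, 1 µM of the glucocorticoid dexamethasone and 0.125 mM indomethacin. All samples, tissues included, carry the same growth and induction text and the strain C57BL/6J. The labels used here give no age for the adult or the embryos, no sex, no number of animals, no housing temperature and no statement on whether the line is 1 clone. The brown day 2 and day 7 libraries are marked as duplicates of samples of another series. Estimated depth in M reads (M, mega) was 61.9 for the day 7 culture, 5.35 for adult and 18.8 for embryonic tissue. A gene with few reads is therefore least well measured in the adult. Culture and tissue also differ in depth and in the kind of file deposited, and these cannot be told apart from the difference in source.

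Brown adipocytes burn fatty acids in dense mitochondria, and the uncoupling protein UCP1 turns the proton gradient into heat. In the animal this is switched on by noradrenaline from sympathetic nerves, acting on adrenergic receptors and cAMP. The tissue also holds capillary endothelium, blood, nerve and resident immune cells, and dissected depots can carry adjoining muscle. In bulk RNA, fewer cells of a type and less RNA per cell cannot be told apart.

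Leading adipocyte genes were read in the culture. Pparg, the master regulator of adipogenesis, stood at 9.5, 37.9 and 143.6 RPKM at 0h, day 2 and day 7 in the brown line, at 84.7 in the adult and at 122 in the embryo. After scaling its differences from the tissues were -0.01 and 0.03. Adipoq, which encodes the hormone adiponectin, went from 0.03 RPKM at 0h to 601 at day 7, beside 554 in the adult and 826 in the embryo, differences of -0.65 and -0.67. The fatty acid carrier Fabp4 stood at 2801 RPKM at day 7, below 5960 in the adult and 10168 in the embryo, with differences of -1.86 and -2.07, and missed membership by the first. Some genes of the thermogenic and brown fat list, chosen after their values were seen, were mixed. Ebf2 stood at 20.01 RPKM in culture against 11.0 and 22.1 in adult and embryo, and the channel Kcnk3 at 94.5 against 91.95 and 114. Prdm16 was low in all 3 libraries, at 1.95, 2.95 and 6.46 RPKM, and the coactivator Ppargc1a stood at 4.77 in culture against 15.2 and 10.0. In all, 4977 genes (52.4% of the 9492) lay within 2-fold of both tissues.

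**Figure D1:**
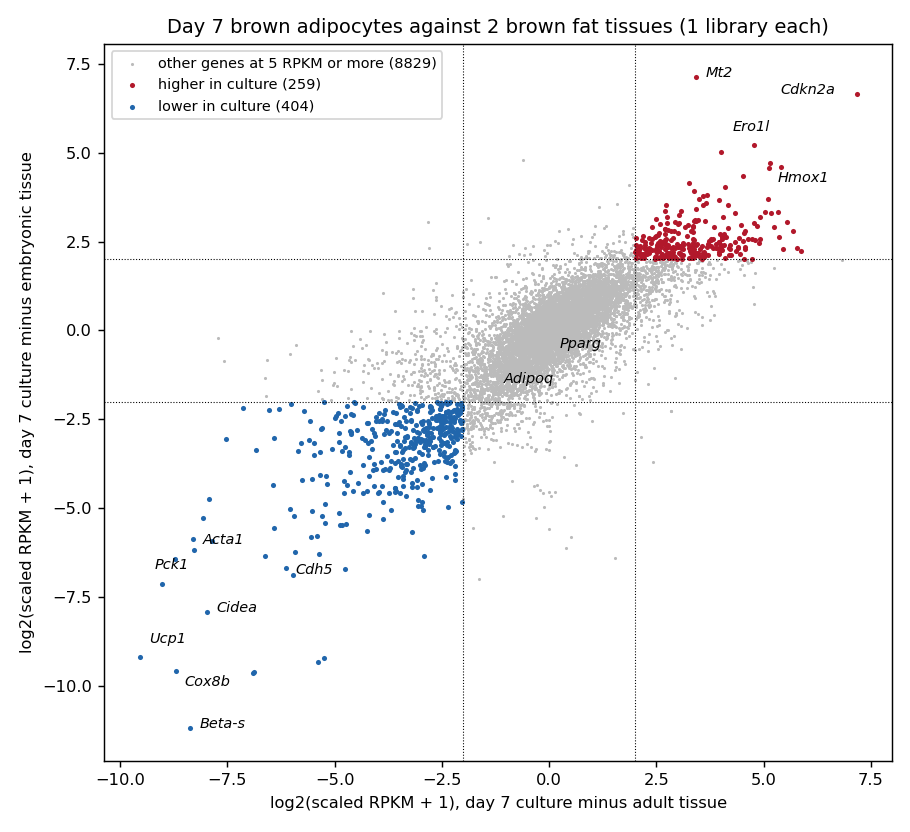
Difference of each of the 9492 genes at 5 RPKM or more on the log2(scaled RPKM + 1) scale, day 7 culture minus adult tissue (horizontal) and minus embryonic tissue (vertical). Dotted lines mark 2 and -2, red points the 259 higher and blue points the 404 lower members. The lower members reach -9.53 against the adult and -11.20 against the embryo, while the higher members reach 7.17 and 7.15.

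The lower members took a far larger share of the tissue messenger pool than the higher members did of the culture's. They held 3.28% of the summed RPKM in culture, 21.8% in the adult and 24.5% in the embryo. The higher members held 5.95% in culture, 0.317% in the adult and 0.503% in the embryo. The smaller of a member's 2 differences reached 3 in 36 higher and 149 lower genes, and 5 in 1 higher and 27 lower genes. Just inside the threshold were Iqgap3, Rbl1 and Pdzd9, whose smaller difference was 2.01. Just outside were Arhgap19, Gpc3 and Pex16, at 2.00. In the adult, 42 of the higher members had a count of 0, and 50 of the lower members were listed at 0 RPKM in the day 7 culture.

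Of all members, Ucp1 had the largest difference from the adult. It stood at 0.02, 0.04 and 1.07 RPKM in the brown line at 0h, day 2 and day 7, at 1015 in the adult and at 1194 in the embryo. The 3T3-L1 day 7 library listed it at 0. Both tissues were far above these cultures, 1614-fold above the day 7 culture in the adult (95% counting interval 1336 to 1968) and 1288-fold in the embryo (1067 to 1568). Cidea, a lipid droplet protein abundant in brown fat, stood at 6.65 RPKM in culture, 1164 in the adult and 1676 in the embryo. Its level in the tissues was 298-fold (272 to 328) and 291-fold (266 to 319) that of the culture. Cox8b, a cytochrome c oxidase subunit of brown fat and muscle, stood at 2.63 RPKM against 956 and 2607, and at 32.5 in 3T3-L1 at day 7. Cpt1b, which brings fatty acids into mitochondria, stood at 3.58 RPKM against 172 and 314, 82.1-fold (75.3 to 89.6) and 101-fold (93.7 to 110) higher in the tissues. These genes had begun to appear by day 7 but stood well under either tissue.

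Of 34 thermogenic and brown fat genes in the files, 27 reached 5 RPKM, 14 were lower members and 0 were higher. The list's median difference was -2.44 from the adult and -1.69 from the embryo, beside 0.10 and 0.08 over all genes at 5 RPKM or more. The 14 lower members included the deiodinase Dio2, which makes active thyroid hormone, at 0.03 RPKM in culture against 17.9 and 7.04. They ranged from 0 to 54.9 RPKM in culture, from 14.4 to 1164 in the adult and from 3.96 to 2607 in the embryo. Several genes of this list (Cox7a1, Cox8b, Cpt1b and the calcium pump Atp2a1) are known to be expressed in muscle as well. The 32 skeletal muscle markers summed to 69.5 RPKM in culture, 2380 in the adult and 751 in the embryo, and their part in this result was not tested.

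**Figure D2:**
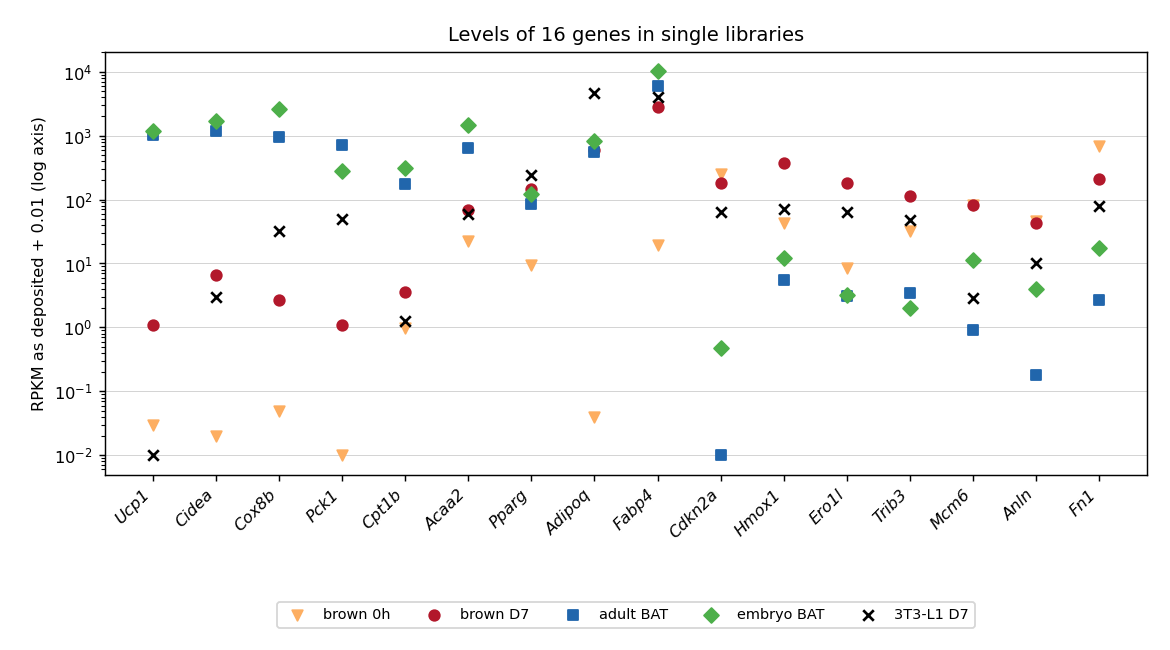
RPKM as deposited plus 0.01, on a log axis, of 16 genes in 5 single libraries: the brown line at 0h and day 7, adult and embryonic tissue, and 3T3-L1 at day 7. From Ucp1 (1.07 RPKM in culture, 1015 and 1194 in tissue) to Acaa2 the tissues lie above the day 7 culture, Pparg and Adipoq of the day 7 culture lie close to the tissues, and from Cdkn2a (181 RPKM in culture, 0 and 0.459 in tissue) to Fn1 the culture lies above.

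Most genes of mitochondrial fuel use were lower. Of 35 fatty acid oxidation and tricarboxylic acid (TCA) cycle genes, all at 5 RPKM or more, 25 were lower members and 0 higher, with median differences of -2.77 and -2.56. Acaa2, the thiolase of the last step of β-oxidation, stood at 22.5 RPKM at 0h, 68.2 at day 7, 648 in the adult and 1440 in the embryo. Slc25a20, the carnitine carrier, stood at 11.5 RPKM against 165 and 216. Sucla2, a subunit of succinate-CoA ligase, stood at 40.8 RPKM against 402 and 540. All 25 members were higher at day 7 than at 0h in RPKM, and their median went from 22.5 to 70.6, against 315 in the adult and 516 in the embryo. The 3T3-L1 day 7 library had a median of 72.4 for the same genes. The size of this set depends on the scaling: 15 genes were lower with no scaling and 11 with quantile scaling.

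The respiratory chain and ATP synthase gave a like picture at smaller folds. Of 62 oxidative phosphorylation genes 60 reached 5 RPKM, 30 were lower members and 0 higher, with medians of -2.03 and -2.46. Cox6b1 of complex IV stood at 52.2 RPKM at 0h and 127 at day 7, against 798 and 1374 in the tissues. Ndufa4, a small subunit of the chain, stood at 69.3 RPKM at day 7 against 455 and 831, and Atp5j2 of ATP synthase at 46.2 against 257 and 808. All 30 were higher at day 7 than at 0h, and all 30 stood below both tissues at either time. The count was 14 with no scaling and 13 with quantile scaling.

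Lipid storage genes were divided. Of 30 mature adipocyte genes 29 reached 5 RPKM, 9 were lower members, 0 were higher and 7 lay within 2-fold of both tissues, with medians of -1.36 and -1.22. Pck1, which feeds glycerol synthesis in fat, stood at 1.07 RPKM at day 7 against 714 and 283, and at 49.9 in 3T3-L1. It was 1139-fold (980 to 1331) higher in the adult and 306-fold (263 to 358) higher in the embryo. Thrsp, a regulator of lipogenesis, stood at 91.2 RPKM against 1984 and 1378. The carbonic anhydrase Car3 stood at 145 RPKM against 1631 and 6370, and Gpd1, which makes glycerol 3-phosphate, at 178 against 1269 and 3348. These 4 stood at no more than 0.24 RPKM at 0h, were well above that by day 7 and were still lower than in either tissue. The esterase Ces1d, in no list, stood at 0.05 RPKM against 325 and 96.6. Of 20 fatty acid and triglyceride synthesis genes 5 were lower, all of them also among the 9 lower mature adipocyte genes. In the synthesis list 1 gene, the desaturase Scd2, was higher, at 1097 RPKM against 85.6 and 135. That list's median was -3.23 from the adult and -0.39 from the embryo, and the latter turned to 0.29 under quantile scaling. Its sum was 5015 RPKM in culture, 19909 in the adult and 7145 in the embryo. Reads of Scd2 and the related gene Scd3, also a higher member, may not be fully separated.

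Some receptors for nerve and hormone signals were lower. Of 36 receptor genes 26 reached 5 RPKM and 3 were lower members. The α1A-adrenergic receptor Adra1a was listed at 0 in culture against 13.2 RPKM in the adult and 5.62 in the embryo. The prostaglandin E receptor Ptger3 was listed at 0 against 34.9 and 5.28, and the adenosine receptor Adora2a stood at 0.34 against 4.65 and 7.65. The β3-adrenergic receptor Adrb3, the main thermogenic receptor, was no member: 30.8 RPKM in culture, 51.6 in the adult and 13.6 in the embryo. Gnas, which encodes the stimulatory G protein subunit and several other transcripts not separated here, was lower, at 271 RPKM against 1272 and 3546, and was not a member under quantile scaling.

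Markers of other cell types made up 60 of the 404 lower members. Endothelial markers were nearly all there: 20 of 23 were lower members, with medians of -3.88 from either tissue. Cdh5, the cadherin of endothelial junctions, was listed at 0 in culture, 51.4 RPKM in the adult and 112 in the embryo. Gpihbp1, which holds lipoprotein lipase on capillaries, was listed at 0 against 46.0 and 129, and Pecam1 stood at 0.14 against 34.4 and 65.6. The list summed to 15.5 RPKM in culture, 449 in the adult and 1088 in the embryo. The culture thus read next to no endothelial RNA.

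Of 32 skeletal muscle markers 16 were lower members, among them the actin Acta1 at 1.67 RPKM against 534 and 183. The myosin light chain Mylpf stood at 0.21 RPKM against 84.7 and 102, and the creatine kinase Ckm at 0.02 against 237 and 64.3. RNA of muscle markers was thus present in both tissue libraries, with a higher sum in the adult (2380 RPKM) than in the embryo (751 RPKM). Whether it came from adjoining muscle or from the fat itself was not tested. Of 13 erythroid markers the 5 that reached 5 RPKM were all lower. The hemoglobin genes Hba-a1 and Hba-a2, near-identical copies, were listed at 0 in culture, at 88.0 and 87.3 RPKM in the adult and at 873 and 866 in the embryo. The β-globin transcript Beta-s, in no list, was at 0 in culture, 244 RPKM in the adult and 2573 in the embryo. The list summed to 2.22 RPKM in culture, 240 in the adult and 3149 in the embryo. Of 24 macrophage and MHC class II markers 6 were lower, all listed at 0 in culture, among them Lyz2 at 19.6 and 25.1 RPKM in the tissues. The complement genes C1qa, C1qb and C1qc, adjacent on chromosome 4, ranged from 6.87 to 16.4 RPKM in the tissues. The macrophage list summed to 7.79 RPKM in culture, 194 in the adult and 149 in the embryo. Of 15 smooth muscle and pericyte markers 4 were lower and 1 higher, with Rgs5 at 0.12 RPKM against 91.5 and 11.2, while Acta2 of smooth muscle and myofibroblasts was higher, at 113 against 9.45 and 18.9. Their part in the other groups of lower genes was not tested.

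**Figure D3:**
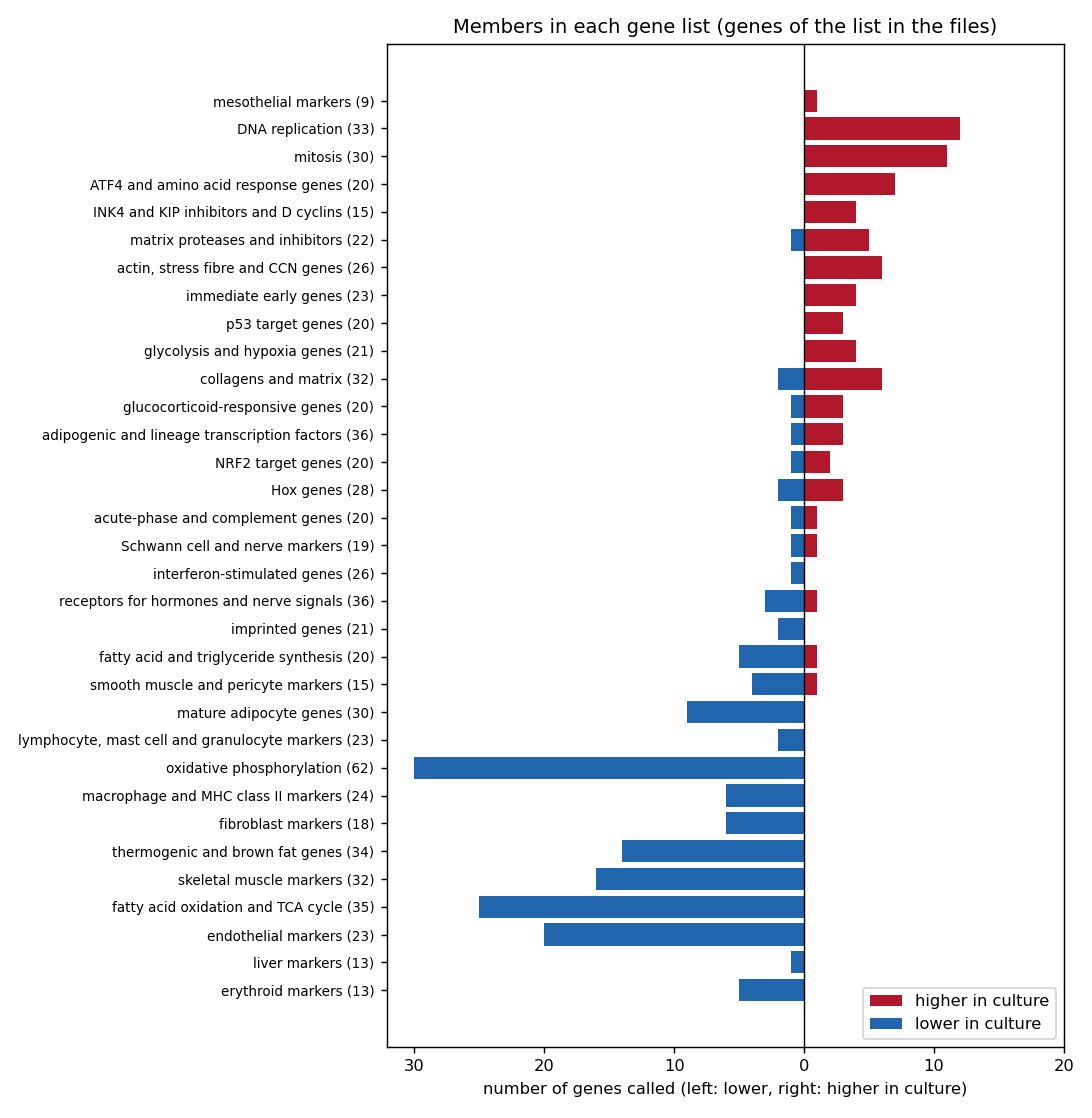
Number of higher (red, right) and lower (blue, left) members in each gene list with at least 1 member, with the number of list genes in the files in parentheses. Lower members are most numerous in oxidative phosphorylation (30), fatty acid oxidation and TCA cycle (25) and endothelial markers (20), and higher members in DNA replication (12) and mitosis (11).

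Among the lists, DNA replication and mitosis held the most higher members by count. As shares of the list genes at 5 RPKM or more, these were 37.5% and 36.7%, beside 2.73% over all such genes. Other lists had like shares, with 35.7% for matrix proteases and inhibitors and 35% for the ATF4 and amino acid response. Of 30 mitosis genes, all at 5 RPKM or more, 11 were higher members and 0 lower, with medians of 4.27 from the adult and 1.94 from the embryo. Of 33 DNA replication genes 12 were higher and 0 lower, with medians of 3.09 and 1.71. The mitosis list summed to 1051 RPKM in the brown line at 0h, 754 at 2h, 746 at 4h, 939 at day 2 and 1049 at day 7, against 13.6 in the adult and 202 in the embryo. In 3T3-L1 at day 7 it summed to 46.4. The brown sum thus dipped in the first hours and stood near its 0h level at day 7, while 3T3-L1 at day 7 lay between the tissues.

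Cell cycle genes share promoter elements: the CCAAT box, the CHR element of mitotic genes and the E2F site of S phase genes. The windows below show these in 2 mitotic members, cyclin B2 (Ccnb2) and topoisomerase IIα (Top2a), and in Mcm6 of the replicative helicase, beside Ucp1 as the leading lower member. Ccnb2 and Top2a were chosen after their values were seen. Each window runs from 250 bases before to 50 after the transcript start, read 5′ to 3′ on the strand of the gene from the RefSeq table (build GRCm38.p6). Capitals mark CCAAT, CHR (TTTGAA), E2F core (TTCCCGC or TTGGCGC) and TATA box (TATAAA) matches on either strand. Ccnb2 is at chr9:70421505-70421804 on the minus strand, Top2a at chr11:99024140-99024439 on the minus strand, Mcm6 at chr1:128359656-128359955 on the minus strand and Ucp1 at chr8:83290098-83290397 on the plus strand.
Ccnb2: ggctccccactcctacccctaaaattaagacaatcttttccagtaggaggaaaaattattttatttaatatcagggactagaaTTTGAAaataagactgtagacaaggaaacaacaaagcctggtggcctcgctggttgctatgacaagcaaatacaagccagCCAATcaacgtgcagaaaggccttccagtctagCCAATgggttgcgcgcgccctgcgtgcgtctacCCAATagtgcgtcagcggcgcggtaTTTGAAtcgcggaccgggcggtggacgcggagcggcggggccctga
Top2a: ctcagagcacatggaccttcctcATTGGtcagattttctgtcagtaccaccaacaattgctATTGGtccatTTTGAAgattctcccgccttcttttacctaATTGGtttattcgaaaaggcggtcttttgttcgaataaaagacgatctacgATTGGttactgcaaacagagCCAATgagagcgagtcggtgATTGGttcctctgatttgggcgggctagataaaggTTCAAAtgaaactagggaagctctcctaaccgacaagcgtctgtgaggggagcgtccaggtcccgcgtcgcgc
Mcm6: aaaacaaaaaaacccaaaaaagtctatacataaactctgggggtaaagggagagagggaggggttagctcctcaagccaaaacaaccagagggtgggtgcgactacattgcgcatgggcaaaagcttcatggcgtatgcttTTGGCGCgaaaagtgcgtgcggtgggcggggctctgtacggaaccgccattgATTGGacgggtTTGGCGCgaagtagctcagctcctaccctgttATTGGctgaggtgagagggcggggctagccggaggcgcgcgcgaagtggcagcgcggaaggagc
Ucp1: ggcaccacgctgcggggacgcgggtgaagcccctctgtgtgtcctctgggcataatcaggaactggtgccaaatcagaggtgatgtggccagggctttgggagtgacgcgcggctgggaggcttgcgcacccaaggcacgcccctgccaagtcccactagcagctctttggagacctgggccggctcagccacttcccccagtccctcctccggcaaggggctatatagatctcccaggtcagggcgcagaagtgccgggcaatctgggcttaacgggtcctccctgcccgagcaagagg
Ccnb2 held 3 CCAAT boxes and 2 CHR elements, Top2a 6 and 2, and Mcm6 2 CCAAT boxes and 2 E2F cores, and Ucp1 held none of the 4 motifs. A match is a description of these letters only.

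Over the sets, 7 of the 9 windows of higher mitosis genes held a CCAAT box and 7 held a CHR element, from 9 of 11 genes with a window. Of the 11 windows of higher replication genes, 8 held a CCAAT box and 7 an E2F core, from 9 of 12 genes. Among all 32851 windows of the table the shares were 37.4% for CCAAT, 17.9% for CHR and 6.81% for the E2F core. Among 226 windows of 184 higher members they were 48.7%, 23.9% and 23.0%, and among 395 windows of 291 lower members 35.2%, 11.4% and 7.59%. The median GC content was 59.8% in windows of higher members, 57.3% in those of lower members and 52.7% over all, and its part was not tested.

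The values of these genes follow. Ccnb2, which drives entry into mitosis, stood at 39.6 RPKM at 0h, 54.4 at day 7, 0 in the adult and 8.64 in the embryo. Top2a, which untangles sister chromosomes, stood at 65.4, 85.6, 0.179 and 13.9 in the same order. Mcm6 stood at 81.6, 82.9, 0.902 and 11.1 RPKM. All 3 were high before induction, intermediate in the embryo and close to absent in the adult. Mcm6 in the day 7 culture was 54.0-fold (32.2 to 98.8) above the adult and 6.45-fold (5.95 to 7.01) above the embryo. Cdt1, which loads the helicase on origins, stood at 63.7 RPKM at day 7 against 0.427 and 4.45. Foxm1, a transcription factor of mitotic genes, stood at 36.2 RPKM against a count of 0 and 4.72, at least 165-fold above the adult when the count of 0 is set to a floor of 3 reads. Anln, which acts in cytokinesis, stood at 43.3 RPKM against 0.172 and 3.94, Cenpf of the kinetochore at 24.98 against 0.0168 and 2.96, and the kinesin Kif20a at 46.6 against 1.45 and 7.00. With no scaling 19 mitosis genes were higher.

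Of 15 INK4 and KIP inhibitors and D cyclins 13 reached 5 RPKM, 4 were higher members, 0 were lower and 3 lay within 2-fold of both tissues, with medians of 1.25 and 0.65. Cdkn2a, which encodes p16INK4a and p19ARF (isoforms not separated), was the highest member by its smaller difference. It stood at 247, 166 and 181 RPKM in the brown line at 0h, day 2 and day 7, had a count of 0 in the adult and stood at 0.459 in the embryo. These 3 culture libraries were far above either tissue, 341-fold (173 to 791) above the embryo and at least 176-fold above the adult for day 7. It was also present in 3T3-L1 at day 7, at 64.4 RPKM. Cdkn2b (p15) stood at 29.9 RPKM against 0.671 and 0.803, Cdkn1b (p27) at 99.5 against 13.8 and 15.4, and the pocket protein gene Rbl1 at 17.4 against 0.651 and 2.92. Under upper-quartile scaling, or scaling over the 14 libraries, 2 of these 4 were members. Of 20 p53 target genes 3 were higher and 0 lower: Gdf15, at 19.8 RPKM against 0.345 and 0.295, Trp53inp1 and Gtse1.

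Stress and nutrient genes followed. Of 20 genes of the ATF4 and amino acid response, 7 were higher and 0 lower, with medians of 2.32 and 1.98. Trib3, a pseudokinase of this response, stood at 32.3 RPKM at 0h, 114 at day 7, 3.46 in the adult and 1.97 in the embryo. Psat1 of serine synthesis stood at 160 and 105 RPKM in culture against 0.775 and 13.7, and the amino acid carrier Slc7a5 at 112 and 32.9 against 0.160 and 2.71. Of the 7, only Trib3 was higher at day 7 than at 0h. Aldh1l2, a mitochondrial folate enzyme in no list, stood at 49.2 RPKM at day 7 against 0.0930 and 0.565. Also in no list, Nrn1, which encodes the neurite outgrowth protein neuritin, stood at 27.2 and 75.4 RPKM at 0h and day 7 against 1.88 and 2.97. The carbonyl reductase Cbr2 stood at 2.24 and 42.8 against 0.916 and 1.88, and 2610528A11Rik at 0.18 and 87.7 against 0.495 and 2.04.

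Hmox1, the heme oxygenase that NRF2 induces, stood at 42.8 RPKM at 0h, 367 at day 7, 5.46 in the adult and 12.3 in the embryo. It was 39.5-fold (29.6 to 53.9) above the adult and 25.9-fold (23.3 to 28.8) above the embryo, and 2 of 20 NRF2 targets were higher and 1, the glutathione transferase Gsta4, was lower, with medians of 0.58 and 1.60. With no scaling 5 NRF2 targets were higher, and with quantile scaling 4. Ero1l, an oxidase that forms disulfide bonds in the endoplasmic reticulum, stood at 8.45 RPKM at 0h and 180 at day 7 against 3.13 and 3.15. Of 21 glycolysis and hypoxia genes 4 were higher and 0 lower. Egln3, an oxygen-sensing prolyl hydroxylase, stood at 8.11 RPKM at 0h and 134 at day 7 against 6.92 and 6.65, and the glucose carrier Slc2a1 at 51.3 and 55.4 against 2.98 and 5.39. Hmox1, Ero1l and Egln3 stood several-fold higher at day 7 than at 0h, while the summed mitosis level was about the same at both times. The metallothionein Mt2 stood at 15.0 RPKM at 0h and 760 at day 7, against 40.7 in the adult and 3.55 in the embryo, and Mt1 at 117 and 1012 against 112 and 181. Of 20 glucocorticoid-responsive genes, 3 were higher and 1, the kinase Sgk1, lower. With no scaling 0 were lower.

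Some matrix and cytoskeletal genes were higher in culture. Of 32 collagen and matrix genes, 6 were higher and 2 lower, with medians of 2.67 and 0.75. Fibronectin, Fn1, stood at 692, 177 and 209 RPKM at 0h, day 2 and day 7, against 2.70 in the adult and 17.3 in the embryo. Thrombospondin 1, Thbs1, stood at 229, 42.7 and 70.3 RPKM against 0.483 and 3.63, and the crosslinking enzyme Lox at 167, 173 and 120 against 4.93 and 7.58. The small proteoglycans were split, with Bgn among the 6 higher genes and Dcn and Lum lower. Dcn stood at 10.1 RPKM against 52.0 and 57.7, and Lum at 0.61 against 7.39 and 21.3. Dcn and Lum are also fibroblast markers, of which 6 of 18 were lower, Clec3b and Cd34 among them. All 6 higher matrix genes were lower at day 7 than at 0h. Under quantile scaling 10 matrix genes were higher. Of 26 actin, stress fibre and CCN genes 6 were higher and 0 lower, with medians of 1.72 and 0.75, among them Ctgf at 211 RPKM at 0h and 24.8 at day 7 against 1.25 and 1.62, and Cyr61 at 349 and 98.01 against 5.53 and 12.5.

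Of 28 Hox genes 16 reached 5 RPKM, 3 were higher and 2 lower, and of 23 immediate early genes 4 were higher and 0 lower. The Hox genes Hoxb9, Hoxc9 and Hoxc10 stood at 14.1, 6.58 and 8.82 RPKM at day 7 and at no more than 0.671 in either tissue, while Hoxa5 was lower, at 3.81 against 14.2 and 16.9. Hoxc10 had a count of 0 in both tissues. The other lower Hox gene was Hoxd8, and with no scaling 0 Hox genes were lower. Egr1 stood at 95.1 RPKM at day 7 against 2.68 and 8.05, Egr2 at 7.89 against 0.189 and 0.144, and Myc at 46.7 against 1.25 and 5.87, and all 3 had been higher at 0h. Klf4, a factor that acts early in adipogenesis, was no member, at 1.49 RPKM in culture against 7.55 and 5.48 (differences of -2.36 and -1.46). Rxrg, a nuclear receptor partner, was lower, at 2.69 RPKM against 11.0 and 31.3, and was not a member with no scaling.

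Most members already lay on the same side of both tissues before induction. In RPKM as deposited and by any margin, 249 of the 259 higher members lay above both tissues at 0h, and 391 of the 404 lower members lay below both. The same share over all 9492 genes was not counted, and the rule chose the members in part by their tissue levels. From 0h to day 7, on a scale set over the 14 libraries, 151 higher members stayed within 1 log2 unit, 75 stood at least 1 unit above 0h and 33 at least 1 unit below. Of the lower members 264 stayed within 1 unit, 104 stood at least 1 unit above 0h, nearer to the tissues, and 36 at least 1 unit below. Over all 9492 genes the counts were 7042, 1454 and 996. The median RPKM of the higher members was 19.4 at 0h, 18.2 at day 2 and 23.1 at day 7, beside 0.457 in the adult and 2.58 in the embryo. That of the lower members was 0.70, 0.685 and 1.31, beside 26.4 and 30.6. In 3T3-L1 at day 7 the same genes had medians of 3.09 and 1.25 RPKM. The cultures and the members share the day 7 and tissue libraries, so these are descriptions.

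**Figure D4:**
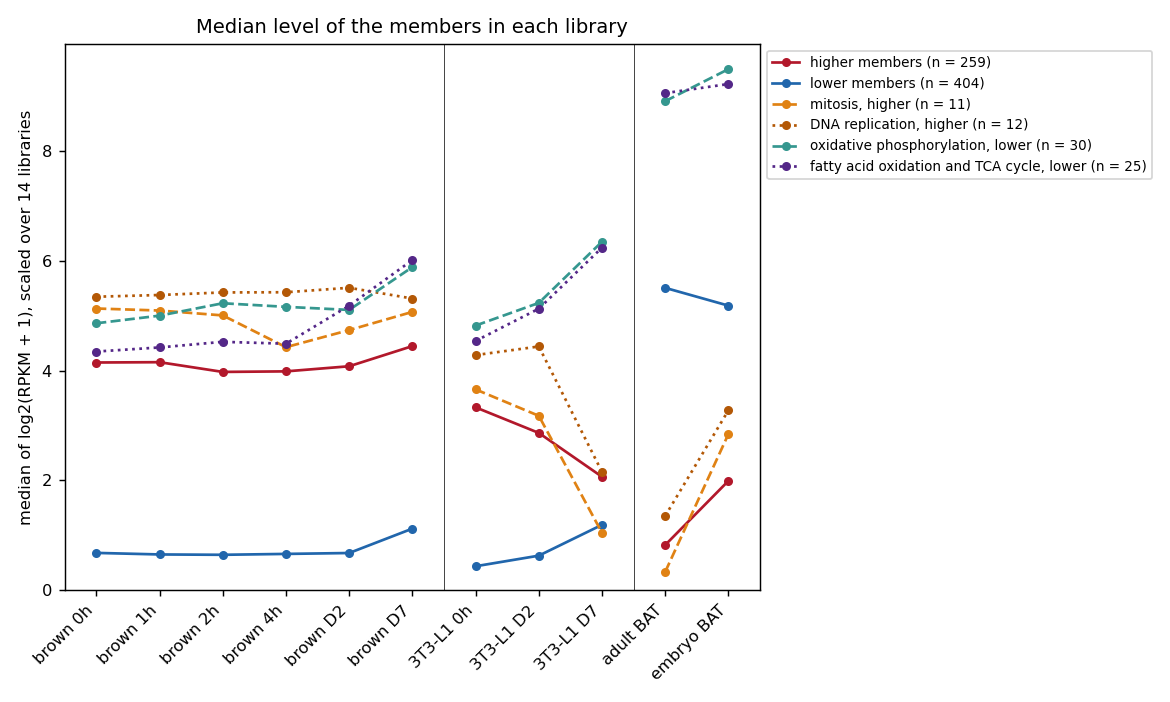
Median of log2(RPKM + 1), scaled over 14 libraries, of 6 sets of members in the brown line from 0h to day 7, in 3T3-L1 at 0h, day 2 and day 7, and in the 2 tissues, 1 library each. In the brown line the mitosis members dip from a median of 5.13 at 0h to 4.43 at 4h and stand at 5.07 at day 7, while in 3T3-L1 the mitosis and replication members are lowest at day 7, and the oxidative sets climb in both lines but stay under the tissues.

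The members were also placed along the genome, which the rule did not use. Chromosome 15 held 29 higher members among its 407 genes at 5 RPKM or more, 7.13% beside 2.73% over all chromosomes, with Myc, Hoxc9 and Hoxc10 among them. The median difference of all its genes was also above 0, at 0.61 from the adult and 0.47 from the embryo at day 7, and 0.47 and 0.28 at 0h. Positions along the chromosome were not looked at. In 3T3-L1 at day 7 the same medians were -0.07 and -0.13, beside 0.44 and 0.51 on chromosome 6. Chromosome 15 aside, the autosomes and X of the brown line lay between -0.26 and 0.32 for day 7 minus adult. For day 7 minus embryo they lay between -0.48 (chromosome 7) and 0.17. At 0h they lay between -0.71 and 0.22 from the adult and between -0.55 and 0.16 from the embryo, and chromosome 14, the lowest in both, lay farther from 0 than chromosome 15. The number of chromosome 15 copies was not measured. Lower members had shorter transcripts, with a median of 1898 bases beside 2927 for higher members and 2670 for all genes at 5 RPKM or more, and the GC medians were 51.5%, 50.9% and 50.7%.

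**Figure D5:**
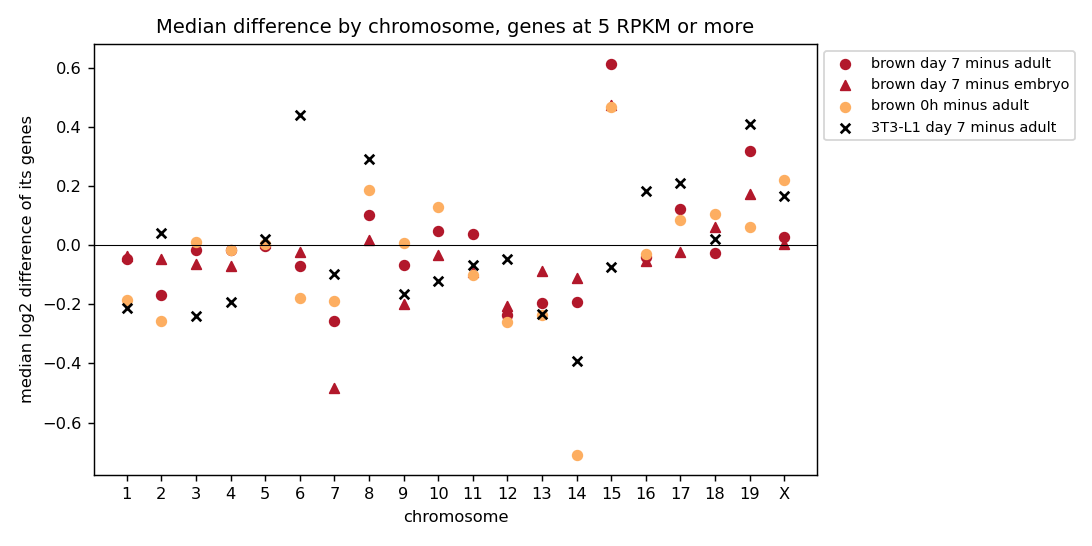
Median log2 difference of the genes at 5 RPKM or more on each chromosome (Y left out) for 4 comparisons: brown day 7 minus adult, brown day 7 minus embryo, brown 0h minus adult and 3T3-L1 day 7 minus adult. On chromosome 15 the brown line stands at 0.61, 0.47 and 0.47, and 3T3-L1 at -0.07.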

How the data were processed

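RNA was sequenced in 14 groups of 1 library each, and titles gave the groups. For cultures the authors deposited RPKM values, rounded to 2 decimals, per the file headers. For tissues the authors deposited a read count beside the RPKM. The submitters' processing notes list CASAVA 1.8.2 and mm9 and state no role for either. Not given in the sources used here are the aligner, the counter and whether strand was used, so overlapping and near-identical genes may share reads. RNA was taken up in Trizol and messenger RNA was selected on Dynabeads, per the labels' protocols.

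For each of 22836 symbols the transcript with the highest mean RPKM over 14 libraries was kept. Of 49 symbols turned to numbers 48 were recovered by accession. The 3 libraries were scaled by the median of ratios over 13974 genes (factors 1.27 for culture, 0.743 for adult and 1.10 for embryo), and differences were taken on log2(RPKM + 1), which understates those of low genes. Levels are RPKM as deposited, and folds are ratios of scaled RPKM. Culture reads were estimated from RPKM, length and depth. The depth of each culture library was the value at which its low RPKM values came nearest to whole reads. At that depth 100% of those values lay within 0.2 of a whole read in each culture library, which is no independent check. The deposited tissue counts kept here sum to 4.02 and 17.5 M reads. Intervals are exact 95% conditional Poisson intervals of the read ratio. Bounds replace a count of 0 by 3 reads per library. The selection was tested on simulated data. Python 3.11.15, numpy 2.4.6, pandas 2.3.3, scipy 1.17.1 and matplotlib 3.10.9 were used.

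The members, the 40 gene lists and the alternatives were chosen with earlier results of these data known. The text names the 12 members per direction with the largest smaller difference, up to 4 per list, Ucp1, Pparg, Adipoq, Fabp4, Klf4 and Egr2, and the 3 genes on each side of the threshold. Of the list members so named, the text gives those its results turn on, and a few named genes are not reported here. miRNA and small nucleolar RNA genes (4 higher and 3 lower members) were counted only. Alternatives of scaling, pseudocount, threshold, filter and transcript choice were tried.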

Additional observations from a re-analysis of the deposited data

Results flagged for a closer look

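A few genes stood on opposite sides of the 2 tissues, by at least 2 on the log2(RPKM + 1) scale from each, and the difference between the contrasts was not tested. There were 4 genes above the adult and below the embryo and 2 below the adult and above the embryo. Dlk1, a preadipocyte factor, stood at 10.6 RPKM in culture, 0.560 in the adult and 133 in the embryo. The other genes counted above the adult were AF357359 and a pair of miRNA gene copies with identical values, all with a count of 0 there. With that 0 set to a floor of 3 reads, the culture stood at 0.14 (AF357359) and 0.66 (miRNA copies) of the adult. Whether they lie above the adult thus cannot be said. Hsd11b1, which regenerates active glucocorticoid, stood at 19.8 RPKM in culture, 87.4 in the adult and 1.11 in the embryo. Scd1, a desaturase, stood at 2473 RPKM in culture, 10163 in the adult and 428 in the embryo.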

How the results depend on the processing

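No paired analysis was possible because each group is 1 library with no replicate number. With no scaling 400 genes were higher and 286 lower (58.3% higher, beside 39.1% as reported), with all 259 reported higher members and 283 of the 404 lower members among them, and the median gene at 5 RPKM or more then stood 0.79 above the adult and 0.27 above the embryo, beside 0.10 and 0.08 after scaling. A pseudocount of 0.1 gave 402 higher and 600 lower genes, and one of 5 gave 60 and 173. A difference of at least 1 gave 1079 and 1135, and one of at least 3 gave 36 and 149. A higher RPKM of at least 20 left 145 higher and 279 lower genes. With the adult alone 656 were higher and 667 lower, and with the embryo alone 357 and 680. In the remaining alternatives the counts lay within 1.5 times those reported, including 2 chosen after seeing the data (a filter on scaled RPKM, 252 and 405, and Y genes and Xist left out, 259 and 402). Over all lists and settings 160 of 836 list counts and 993 of 6212 named differences moved. Reversal was scored only for the differences of named members, and none of those changed sign. Some list medians did change sign, as that of the cholesterol genes from the adult, -0.32 as reported and 0.23 with no scaling. The cause was not tested. With 1 library a group, replicate error is unknown, and the adult depth limits what can be said of genes with few reads there.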

Other observations

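Some gene groups held few or no members. Of 22 cholesterol genes 18 reached 5 RPKM and 0 were members, with median differences of -0.32 and -0.04, and of 19 clock genes 17 reached it and 0 were members. The 38 cytosolic ribosomal protein genes had 0 members, with a median of 0.90 from the adult and -0.51 from the embryo. Under quantile scaling the median from the embryo turned to 0.06. Imprinted genes stood near the adult and below the embryo, with medians of 0.14 and -2.39. Igf2, a fetal growth factor, stood at 1.58 RPKM in culture, 4.46 in the adult and 316 in the embryo, and H19 at 43.8, 23.2 and 917. Ndn was a lower member, at 1.22 RPKM against 10.5 and 70.8.

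Other lists held a few members each. Of 14 heat shock genes 12 reached 5 RPKM, of 22 chemokine and cytokine genes 7 did, and 0 of either were members. Of 26 interferon-stimulated genes 1, Rsad2, was lower, at 0.39 RPKM against 4.54 and 11.8, and with no scaling 0 were lower. Of 20 acute-phase and complement genes Serpina3g was higher and Serping1 lower. Of 22 matrix proteases and inhibitors 14 reached 5 RPKM. Of those, 5 (35.7%, beside 2.73% over all genes at 5 RPKM or more) were higher, among them Mmp11 and Adamts2, and Timp4 was lower. Of 36 adipogenic and lineage transcription factors 3 were higher (Egr2, Hoxc9 and Tbx15) and Rxrg was lower (0 lower with no scaling), and 4 of 23 immediate early genes were higher. Granulocyte genes S100a8 and S100a9 were the 2 lower members among 23 lymphocyte, mast cell and granulocyte markers, of which 1 was lower with no scaling. Of 19 Schwann cell and nerve markers 1, S100b, was lower, at 0.63 RPKM against 11.7 and 37.9, and 1, Egr2, was higher. The nerve list had medians of -0.19 and -0.05, and summed to 153 RPKM in culture, 60.1 in the adult and 78.0 in the embryo. Trf, the only liver marker at 5 RPKM, stood at 0.31 against 42.3 and 76.3. Krt19 was the 1 higher mesothelial marker, at 6.34 RPKM against a count of 0 and 0.116. Of 16 keratinocyte markers 0 reached 5 RPKM, and of 15 cartilage and bone markers 1 did and 0 were members.

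Sex-linked genes, looked at after the values were seen, differed between the libraries. Xist, the RNA of the inactive X, stood at 146 RPKM in the day 7 culture, 0.0104 in the adult and 30.8 in the embryo. The Y-linked Ddx3y stood at 0.05 RPKM against 22.4 and 8.99, and Eif2s3y at 0.03 against 30.2 and 17.6, and both were lower members. Sex and number of animals are not in the labels used here.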
